A study of Homo sapiens with 9 samples.

Results

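Interferon-stimulated genes are the antiviral and regulatory genes that cells switch on when interferon binds its receptors. The 50 genes described here were chosen by name, as well-known interferon-induced genes together with the STAT and IRF factors that regulate them. They are 50 of the 60676 genes in the count table, and each of the 50 names was found there. Of these, 46 had enough counts to enter the test, which 15500 genes did in all. The remaining 4 (IFITM1, MX2, IFI44L and XAF1) are described by their counts.

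The cells were A549, an established line of human lung adenocarcinoma, transduced with a lentiviral short hairpin RNA. The control hairpin, shNT, targets no transcript, and shLITATS1-1 and shLITATS1-2 are separate hairpins against the long noncoding RNA LITATS1, with 3 libraries in each group and 9 in all. Every group, shNT included, went through the same steps: transduction overnight, culture for 2 days, selection with 1 ng/mL of puromycin as the labels give it, and culture for 3 more days. No group of untransduced cells was analysed here, and the labels name no added interferon. The design text calls the replicates biological without saying whether each was its own transduction, so the p-values speak only for the spread among the 9 libraries. In a bulk sample, fewer cells that use a gene and less RNA per cell cannot be told apart.

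Type I and type III interferons signal through the kinases JAK1 and TYK2 to a complex called ISGF3, which holds STAT2 and IRF9 and binds interferon-stimulated response elements (ISREs) in promoters. Interferon gamma signals through JAK1 and JAK2 to promoters with gamma-activated sites (GAS). The induced proteins sense viral RNA, block translation, trap virus particles and modify other proteins with ISG15. Epithelial cells of the lung are a main source and target of type III interferon.

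A library had between 24556848 and 24671296 fragments, with 19610514 to 19989652 counted in genes. LITATS1 remained at 22.05% ± 2.68 (SD, n = 3) of its shNT level with shLITATS1-1 and at 19.96% ± 2.12 with shLITATS1-2, and these levels did not differ detectably between the hairpins (log2 difference -0.14, SE 0.16, adjusted p = 0.438, edgeR). Genes of the mitochondrial genome took 12.2% of a library's counted fragments in shNT cells, 10.2% in the first hairpin's and 7.97% in the second's, and the part of this shift in the results was not tested. Of 8 immune cell markers, CD3E was at 0 in all libraries, and the summed level of the list lay between 1.75 and 2.35 CPM (fragment counts scaled to library size) with shNT, between 2.78 and 3.63 with shLITATS1-1 and between 5.43 and 6.51 with shLITATS1-2. Most of that sum was CD14, which rose by 0.83 and 1.93 on the log2 scale. Of 3 plasmacytoid dendritic cell markers, LILRA4 was at 0 in all libraries. Their sum, nearly all IL3RA, lay between 3.02 and 3.23 CPM, 4.53 and 5.83 CPM, and 3.13 and 4.15 CPM in the same order. The 4 fibroblast markers, mainly THY1, summed to 2.20 to 2.72 CPM with shNT and to 1.32 to 1.79 and 0.965 to 1.44 with the hairpins. All 7 A549 and epithelial markers were present in every library, the lowest being KRT19 with 78.5 CPM, and CDKN2A, which A549 cells have lost, was at 0. The 7 summed to 18070 ± 188 CPM (SD) over the shNT libraries, to 23200 ± 269 over those of shLITATS1-1 and to 12240 ± 190 over those of shLITATS1-2. ALDH1A1 was the largest part in each group, at means of 6351, 9809 and 3517 CPM. The 7 did not move together: 4 rose and 3 fell with shLITATS1-1, beside 30.5% and 30.5% of all tested genes. With shLITATS1-2, KRT19 rose by 1.00 on the log2 scale and 6 fell, where 27.8% of all tested genes rose and 28.9% fell. The part of these markers in the results was not tested.

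Most interferon-stimulated genes were higher with shLITATS1-1 than with shNT, fewer and by less with shLITATS1-2, and the direct comparison of the hairpins placed most of them lower with shLITATS1-2. With shLITATS1-1, 35 of the 46 tested genes rose, 2 fell and 9 did not pass (edgeR's quasi-likelihood test, with p adjusted by Benjamini-Hochberg and a threshold of 0.05). In that comparison 30.5% of all tested genes were called higher and 30.5% lower, 61% in either direction. The median log2 fold change of the 46 was 0.58, beside -0.0070 over all tested genes. With shLITATS1-2, 28 rose, 7 fell and 11 did not pass, where 27.8% of all tested genes were called higher and 28.9% lower, 56.7% in either direction. Here the median was 0.35, beside -0.0040 over all genes. The 2 comparisons share the shNT libraries, so their values are set side by side below and not counted as separate evidence.

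A change of at least 2-fold set the hairpins further apart. With shLITATS1-1, 18 genes rose at least 2-fold, against 6.14% of all tested genes, and IFI35 fell by that much, as 2.54% of all tested genes did. With shLITATS1-2, 8 genes (OAS2, BST2, GBP1, GBP2, GBP3, SAMD9, SAMD9L and IFI44) rose at least 2-fold, against 3.78% of all tested genes. The lowest value was that of IFIT5, at -0.60, while 2.17% of all tested genes fell at least 2-fold. Between the hairpins, 29 of the 46 were lower and 8 higher with shLITATS1-2 than with shLITATS1-1, where 30.2% of all tested genes were lower and 30.7% higher (60.9% in either direction), and the median was -0.44 beside 0.0146 over all genes. Past 2-fold, TRIM22 was higher (3.05% of all tested genes were) and IFIT1, IFIT2 and OASL were lower (5.27% were). The 50 genes together came to 1292 ± 13.2 CPM (SD) in the shNT libraries, 2030 ± 12.1 in those of shLITATS1-1 and 1486 ± 16.0 in those of shLITATS1-2. Scaling by library size alone in place of TMM factors moved the median of all genes by 0.11 with shLITATS1-2, and then 67.1% of the called genes were higher instead of 48.96%. Under that scaling 33 interferon-stimulated genes were higher and 6 lower with shLITATS1-2. Between the hairpins 9 were higher and 27 lower, with 67.7% of all called genes higher instead of 50.4%.

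**Figure D1:**
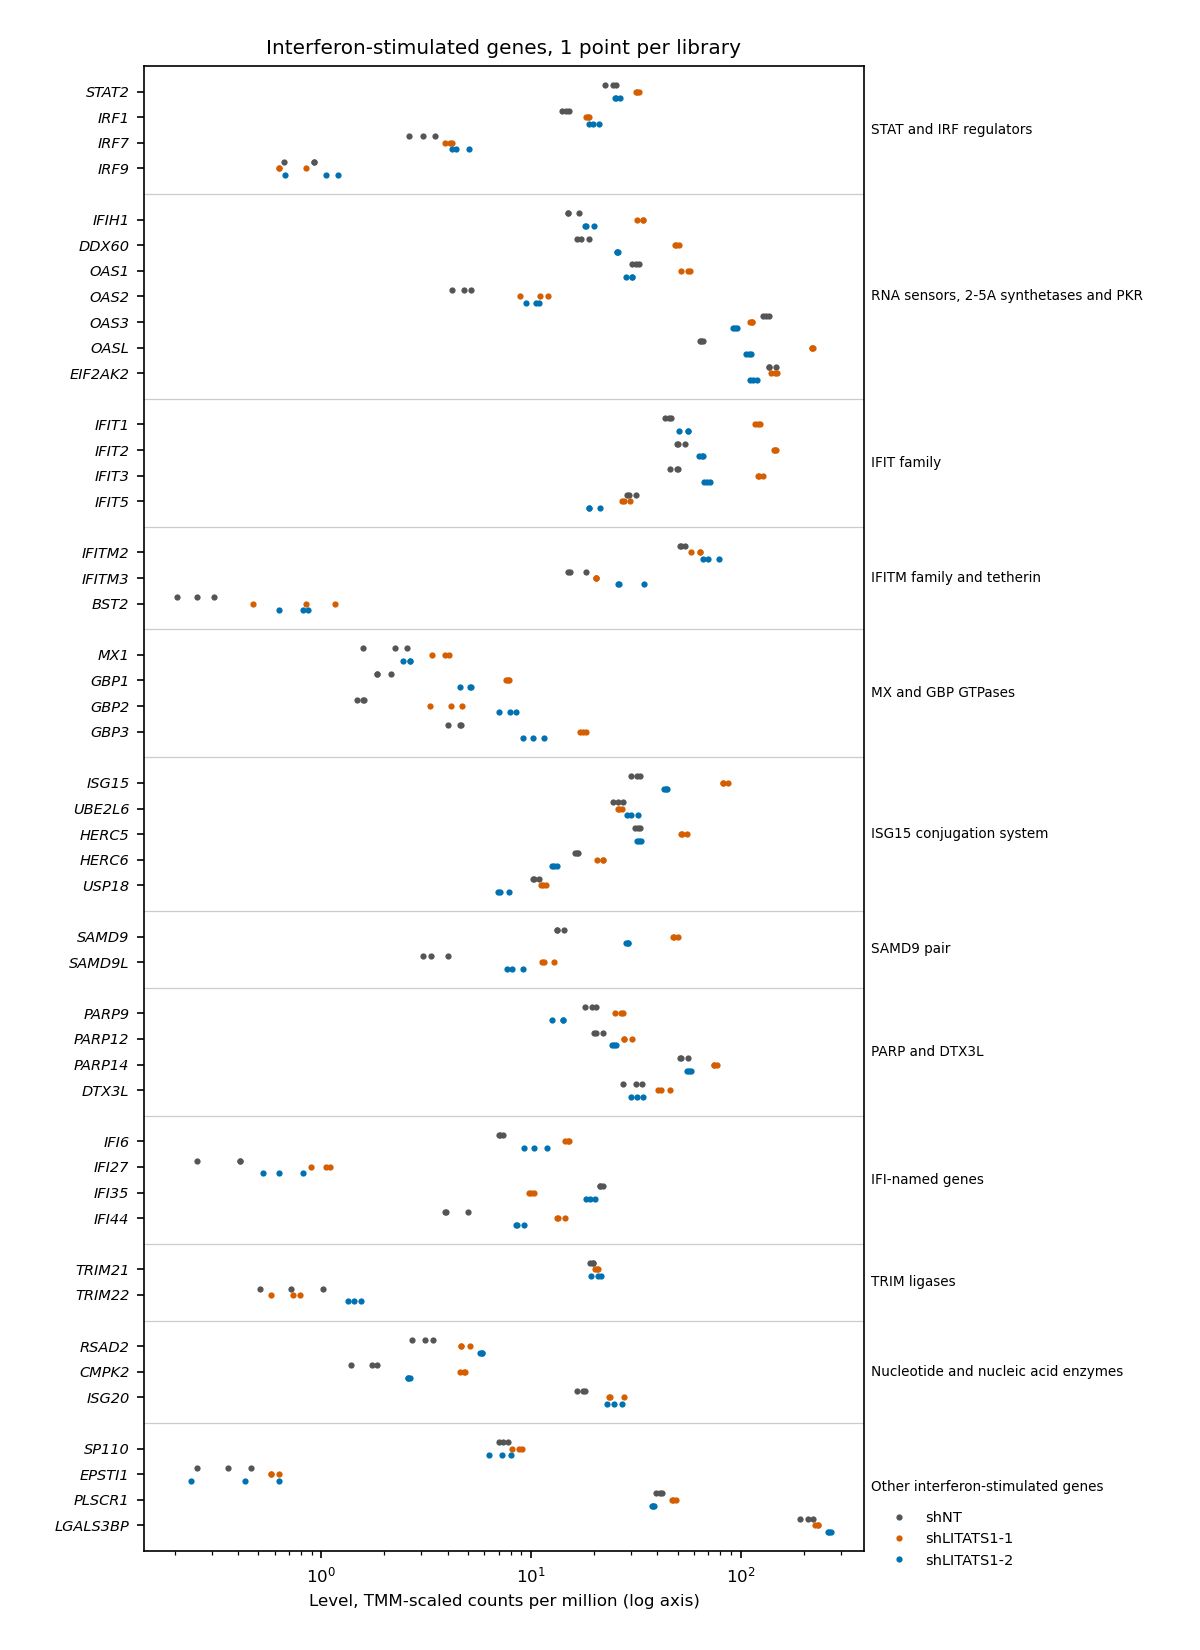
Level of each of the 46 tested interferon-stimulated genes in CPM on a log axis, 1 point per library, with shNT in grey, shLITATS1-1 in orange and shLITATS1-2 in blue, grouped by family. For IFIT1, IFIT2, OASL and ISG15 the orange points stand to the right of the blue ones and the blue to the right of the grey, while IFI35 has its orange points at the left.

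Promoters were read to see which of these genes carry the letters of the interferon elements. Sequences came from RefSeq on GRCh38.p14, from 250 bases before to 50 bases after each gene's start site, and 41 of the 50 genes matched an entry. The ISRE core was searched as GAAANNGAA and the gamma-activated site as TTCNNNGAA, on both strands, and matches may overlap each other. The ISRE core was present in 29 of 41 promoters (70.7%, 95% Wilson interval 55.5 to 82.4), beside 8.29% of 27305 promoters of all genes and 6.42% of 11289 promoters of tested genes. The GAS letters were present in 12 of 41 (29.3%, interval 17.6 to 44.5), beside 7.88% of all promoters. A second form of the core, AANNGAAAC, was present in 28 of 41 (68.3%), beside 5.36% of all promoters. These shares describe letters and do not say that a factor bound there. The genes were chosen as well-known interferon-induced genes, so a high share of ISRE letters can follow from that choice. It is no result about the hairpins, and the intervals treat a chosen list as a sample.

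The stretch from 150 bases before to 20 bases after the start site is shown for 6 genes, 5′ to 3′ on the gene's own strand, with the ISRE core in capitals. Matches on the opposite strand are capitalised as they read here, such as TTCACTTTC in IFIT1. ISG15, IFIT1 and SAMD9 each rose with both hairpins and more with shLITATS1-1, while OAS3 and IFIT5 carry the core but did not rise. IFI35 fell with shLITATS1-1 and has no match to this core in its window. SAMD9L and CMPK2, whose sequences are not shown, also lack the core and rose with both hairpins. Of the 11 tested genes without the core, 7 rose and 1 fell with shLITATS1-1, and of the 27 with it 22 rose and 1 fell. Of all tested genes 30.5% rose and 30.5% fell in that comparison.
ISG15 (chr1:1013347-1013516, plus strand): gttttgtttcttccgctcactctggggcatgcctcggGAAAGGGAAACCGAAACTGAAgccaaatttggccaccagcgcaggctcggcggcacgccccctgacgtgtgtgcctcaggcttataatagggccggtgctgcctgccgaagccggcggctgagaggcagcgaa
IFIT1 (chr10:89392473-89392642, plus strand): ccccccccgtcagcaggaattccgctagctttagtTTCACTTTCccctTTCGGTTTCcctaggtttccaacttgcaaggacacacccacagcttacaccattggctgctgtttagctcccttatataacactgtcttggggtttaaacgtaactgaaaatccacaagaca
SAMD9 (chr7:93117960-93118129, minus strand): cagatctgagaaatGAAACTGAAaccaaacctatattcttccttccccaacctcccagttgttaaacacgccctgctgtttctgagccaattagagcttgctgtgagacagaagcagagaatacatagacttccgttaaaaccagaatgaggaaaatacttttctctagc
OAS3 (chr12:112938324-112938493, plus strand): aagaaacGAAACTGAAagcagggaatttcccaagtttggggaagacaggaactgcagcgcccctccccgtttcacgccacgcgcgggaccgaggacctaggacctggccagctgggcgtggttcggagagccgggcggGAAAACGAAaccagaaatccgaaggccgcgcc
IFIT5 (chr10:89414418-89414587, plus strand): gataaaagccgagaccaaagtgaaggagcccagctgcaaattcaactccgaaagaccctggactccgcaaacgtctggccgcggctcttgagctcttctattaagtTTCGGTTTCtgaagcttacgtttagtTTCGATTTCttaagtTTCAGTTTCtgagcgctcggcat
IFI35 (chr17:43006634-43006803, plus strand): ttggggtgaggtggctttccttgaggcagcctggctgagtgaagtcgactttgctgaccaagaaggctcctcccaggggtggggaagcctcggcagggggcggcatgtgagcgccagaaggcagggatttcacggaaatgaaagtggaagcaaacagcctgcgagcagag

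In ISG15, 3 copies begin 113, 107 and 101 bases before the start site and overlap, which makes a single run of capitals. IFIT1 carries 2 copies on the opposite strand, beginning 115 and 102 bases before the start, and IFIT5 carries 3 on that strand, at 44, 18 and 3 bases before it. OAS3 has copies at 143 and 12 bases before the start. IFI35 has a GAS match that begins 22 bases before the start. The tested genes with an ISRE core had a median log2 fold change of 0.72 (n = 27) with shLITATS1-1 and those without it 0.39 (n = 11). With shLITATS1-2 the medians were 0.35 and 0.09, given as a description without a test. The ranges with shLITATS1-1 overlapped, from -0.22 to 2.00 with the core and from -1.10 to 1.77 without it. For the second form of the core the medians were 0.76 and 0.37 with shLITATS1-1, and 0.27 and 0.16 with shLITATS1-2. For the GAS letters they were 0.72 and 0.52, and 0.27 and 0.27. Tested genes without a promoter entry were left out.

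**Figure D2:**
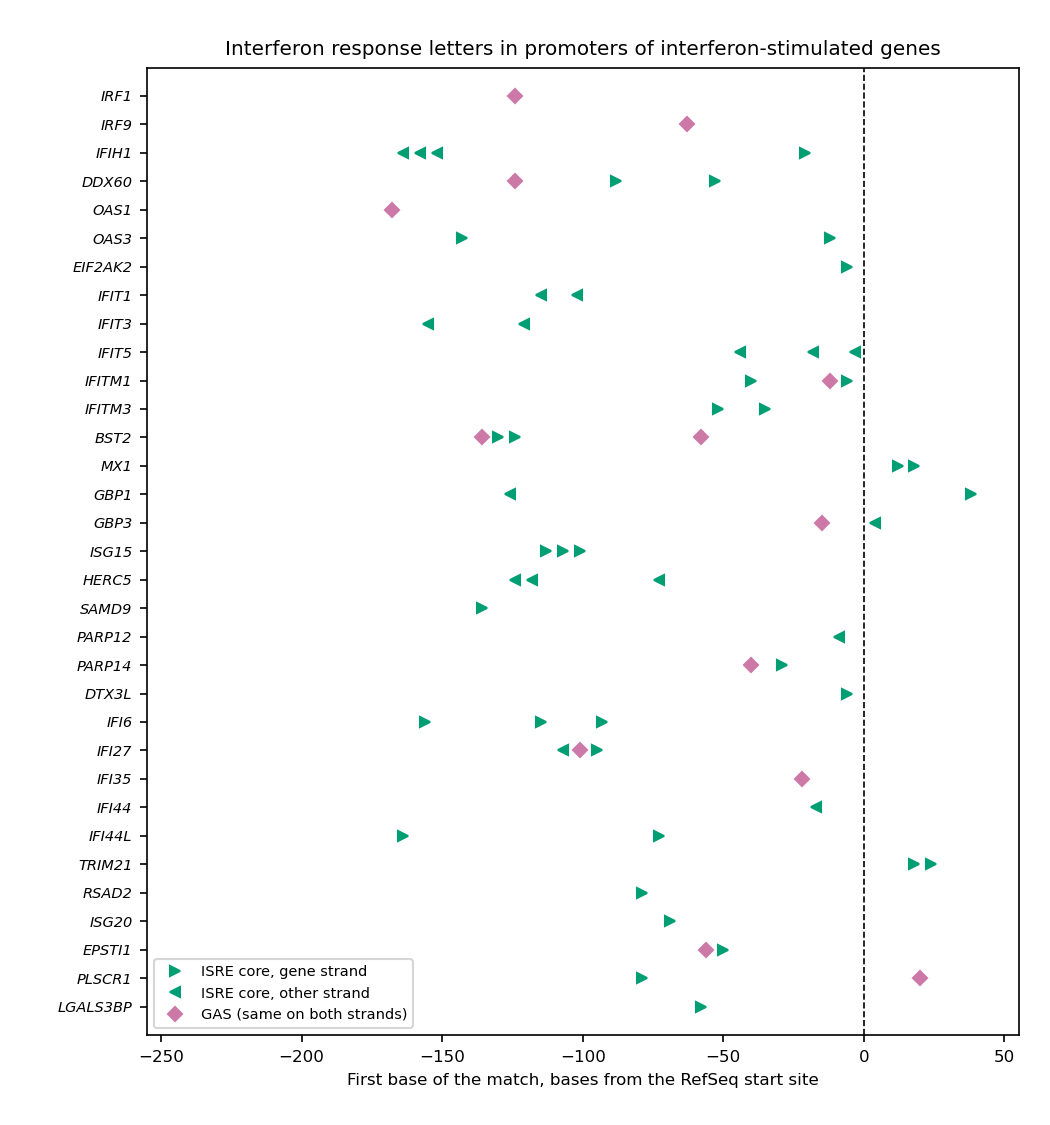
Position of each match in bases from the RefSeq start site for the interferon-stimulated genes that hold at least 1 match, with green triangles for the ISRE core, pointing right on the gene's strand and left on the other, and pink diamonds for the GAS letters. Most ISRE matches lie before the start site, and IRF1, IRF9, OAS1 and IFI35 show a diamond without a triangle.

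Of the 4 STAT and IRF regulators, 3 rose with shLITATS1-1 and 2 with shLITATS1-2, beside 30.5% and 27.8% of all tested genes. Their median log2 fold changes were 0.38 and 0.33, beside 0.58 and 0.35 for the 46 genes, and none changed 2-fold. STAT2, the ISGF3 subunit that activates transcription, stood at 24.61, 22.6 and 25.4 CPM in the 3 shNT libraries, at 31.8, 31.8 and 32.9 with shLITATS1-1 and at 25.5, 25.2 and 26.7 with shLITATS1-2. The shLITATS1-1 libraries lay above all others, while shLITATS1-2 overlapped shNT. The log2 fold change was 0.41 (SE 0.060, adjusted p = 1.14e-08, edgeR) with shLITATS1-1 and 0.09 (SE 0.061, adjusted p = 0.193) with shLITATS1-2. IRF1, an early induced activator, stood at 14.6, 14.1 and 15.1 CPM with shNT, 18.7, 18.2 and 18.8 with shLITATS1-1 and 21.0, 19.8 and 18.8 with shLITATS1-2. Both hairpin groups lay above shNT and overlapped each other, with log2 fold changes of 0.35 (SE 0.074) and 0.44 (SE 0.072). IRF1 shares 2185 exonic bases with genes annotated on the opposite strand. The strand setting of the counting is not given, so fragments there may be missing from its count.

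IRF7, which amplifies interferon production, was low throughout, at 3.07, 2.61 and 3.49 CPM with shNT, 4.20, 3.89 and 4.10 with shLITATS1-1 and 4.39, 4.18 and 5.09 with shLITATS1-2. It rose by 0.41 (SE 0.15, adjusted p = 0.0152, edgeR) and 0.58 (SE 0.15, adjusted p = 5.02e-04) with no overlap of either group with shNT. The first of these calls was lost without shNT replicate 2 (0.31) and in DESeq2 (0.42). IRF9, the DNA-binding subunit of ISGF3, was barely present, at 0.92, 0.92 and 0.67 CPM with shNT, 0.63, 0.63 and 0.84 with shLITATS1-1 and 0.68, 1.06 and 1.20 with shLITATS1-2. The groups overlapped and no comparison passed. IRF9 shares 1838 of its exonic bases with another annotated gene on the same strand, so fragments there may be missing from its count.

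Of the 7 sensors, oligoadenylate synthetases and PKR, 5 rose and 1 fell with shLITATS1-1, and 4 rose and 2 fell with shLITATS1-2. Between the hairpins, 6 were lower with the second, beside 30.2% of all tested genes. Of all tested genes 30.5% rose and 30.5% fell with shLITATS1-1, and 27.8% and 28.9% with shLITATS1-2. The share that fell with shLITATS1-2 was thus near the background. IFIH1, or MDA5, which detects long double-stranded RNA, stood at 16.9, 14.98 and 14.9 CPM with shNT, 34.4, 34.3 and 32.0 with shLITATS1-1 and 19.9, 18.4 and 18.2 with shLITATS1-2. The 3 groups did not overlap, and shLITATS1-2 stood near shNT. With shLITATS1-1 the log2 fold change was 1.10 (SE 0.066), with shLITATS1-2 it was 0.27 (SE 0.072), and the direct difference between the hairpins was -0.83 (SE 0.063, adjusted p = 2.91e-19, edgeR). DDX60, a helicase related to viral RNA sensing, stood at 18.9, 16.5 and 17.4 CPM, 50.7, 48.4 and 49.2, and 25.8, 26.1 and 25.6 in the same order of groups. Here too the groups stood apart, with fold changes of 1.49 (SE 0.059) and 0.55 (SE 0.065) and a direct difference of -0.94 (SE 0.054).

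The oligoadenylate synthetases did not move as one family. OAS1, OAS2 and OAS3 make short oligoadenylates that set off the decay of RNA, and they lie side by side on chromosome 12, while the related OASL has no such activity and enhances RNA sensing instead. OASL stood at 66.0, 64.7 and 63.6 CPM with shNT, 219.6, 220.4 and 218.5 with shLITATS1-1 and 111.3, 105.5 and 109.3 with shLITATS1-2. The 3 groups were far apart relative to their spread, with log2 fold changes of 1.76 (SE 0.036) and 0.75 (SE 0.038) and a direct difference of -1.01 (SE 0.034, adjusted p = 1.20e-38, edgeR). OAS2 stood at 5.17, 4.81 and 4.21 CPM, at 8.82, 11 and 12 and at 9.51, 10.96 and 10.6. Its hairpin groups overlapped each other and lay above shNT, with fold changes of 1.16 (SE 0.11) and 1.13 (SE 0.11) and a direct difference that did not pass (-0.04, SE 0.096, adjusted p = 0.764).

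OAS1 rose by 0.80 (SE 0.053) with shLITATS1-1 and was at -0.09 (SE 0.057, adjusted p = 0.170, edgeR) with shLITATS1-2. OAS3, between OAS1 and OAS2 in the genome, fell with both, by 0.22 (SE 0.036) and, with shLITATS1-2, by 0.48 (SE 0.037). EIF2AK2, the kinase PKR that stops translation on binding double-stranded RNA, was at 0.05 (SE 0.036) without passing with shLITATS1-1 and fell by 0.28 (SE 0.037) with shLITATS1-2. Each of OAS1, OAS3 and EIF2AK2 was lower with shLITATS1-2 than with shLITATS1-1, by log2 differences of -0.89, -0.26 and -0.33. The OAS3 and EIF2AK2 promoters both carry the ISRE core, as the OAS3 sequence above shows.

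IFIT proteins bind foreign RNA and hinder its translation, and their 4 genes lie in a row on chromosome 10, from the start of IFIT2 at position 89283694 to the end of IFIT5 at 89421001 (GENCODE 29, GRCh38). IFIT1, which recognises caps that lack host methylation, stood at 45.5, 43.8 and 46.3 CPM with shNT, 116.7, 123.9 and 120.5 with shLITATS1-1 and 50.95, 55.9 and 56.3 with shLITATS1-2. IFIT2 stood at 53.9, 49.9 and 50.3 CPM, 144.0, 144.9 and 147.7, and 65.7, 63.5 and 65.5 in that order. IFIT3, which stabilises IFIT1, stood at 50, 49.4 and 45.9 CPM, 120.3, 122.5 and 128.2, and 71.6, 66.7 and 69.3. In each of these genes the 3 groups stood apart, shNT lowest, shLITATS1-2 just above it and shLITATS1-1 far above both.

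The log2 fold changes with shLITATS1-1 were 1.41 (SE 0.043) for IFIT1, 1.502 (SE 0.040) for IFIT2 and 1.35 (SE 0.042) for IFIT3. With shLITATS1-2 they were 0.27 (SE 0.047), 0.34 (SE 0.043) and 0.51 (SE 0.045). The direct differences, -1.15, -1.16 and -0.84, had standard errors of 0.042, 0.038 and 0.040. IFIT5, the last gene of the row, did not follow. It was at -0.08 (SE 0.061, adjusted p = 0.228, edgeR) with shLITATS1-1 and fell by 0.60 (SE 0.063) with shLITATS1-2, although its promoter, printed above, holds 3 copies of the ISRE core. IFIT2 shares 421 exonic bases with other annotated genes, one of them LIPA on the opposite strand.

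**Figure D3:**
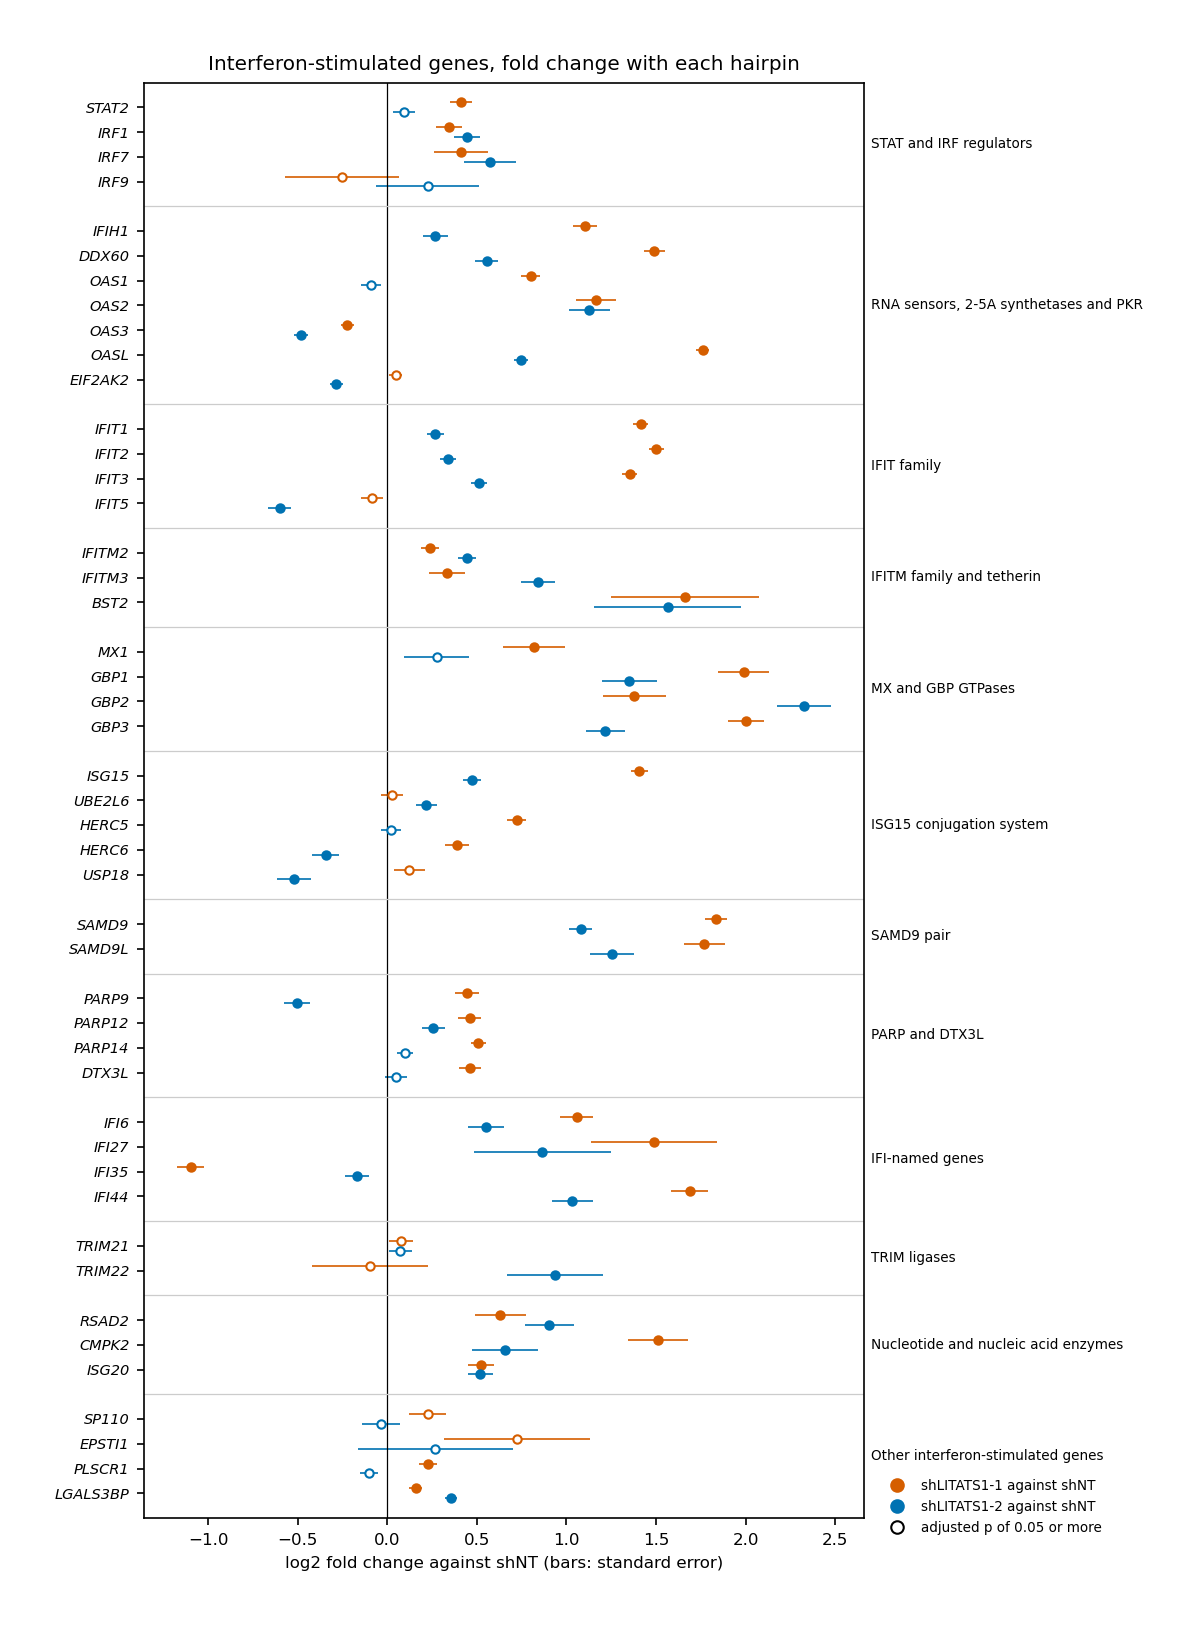
Log2 fold change of the 46 tested genes with shLITATS1-1 (orange) and shLITATS1-2 (blue) against shNT, with bars of 1 standard error and open circles where the adjusted p was 0.05 or more. Orange stands to the right of blue for most genes, the reverse holds for GBP2 and IFITM3, and HERC6 and PARP9 have filled circles on both sides of 0.

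IFITM2 and IFITM3 showed the other order of the hairpins, while BST2 did not differ detectably between them. IFITM proteins, which keep viruses from fusing with cell membranes, rose with both: IFITM2 by 0.24 (SE 0.051) and 0.44 (SE 0.050), and IFITM3 by 0.33 (SE 0.10) and 0.84 (SE 0.093). Both were higher with shLITATS1-2 than with shLITATS1-1, by 0.20 (SE 0.049) and 0.51 (SE 0.090, adjusted p = 3.47e-05, edgeR). The IFITM3 call with shLITATS1-1 was lost without shNT replicate 2 (0.29). IFITM1 had 2 to 4 counts per library with shNT, 3 to 6 with shLITATS1-1 and 5 to 8 with shLITATS1-2, and it shares 351 exonic bases with IFITM2. BST2, or tetherin, which holds budding virus at the cell surface, stood at 0.20, 0.26 and 0.31 CPM (4 to 6 counts) with shNT, 0.47, 0.84 and 1.16 with shLITATS1-1 and 0.63, 0.87 and 0.82 with shLITATS1-2. Both hairpin groups lay above shNT at this low level and overlapped each other, with fold changes of 1.66 (SE 0.41) and 1.56 (SE 0.41).

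Guanylate-binding proteins, GTPases that attack the membranes around intracellular pathogens, gave the highest fold change of the 46 tested genes with either hairpin. GBP1 stood at 1.84, 2.15 and 1.85 CPM with shNT, 7.77, 7.89 and 7.58 with shLITATS1-1 and 4.58, 5.15 and 5.19 with shLITATS1-2. GBP3 stood at 4.66, 4.60 and 4.003 CPM, 18.2, 17.2 and 17.7, and 9.12, 11.5 and 10.2. In both genes all hairpin libraries lay above shNT and shLITATS1-1 lay highest, with fold changes of 1.99 (SE 0.14) and 1.35 (SE 0.15) for GBP1 and 2.00 (SE 0.0996) and 1.22 (SE 0.11) for GBP3. GBP2 had the opposite order, at 1.48, 1.59 and 1.59 CPM, 4.15, 4.68 and 3.32, and 7.91, 7.07 and 8.45. Its log2 fold changes were 1.38 (SE 0.18) and 2.33 (SE 0.15), and the direct difference of 0.95 (SE 0.12, adjusted p = 6.50e-10, edgeR) placed it higher with shLITATS1-2. These genes neighbour each other on chromosome 1, and GBP2 shares 621 exonic bases with GBP7 on the same strand. MX1, a GTPase that blocks viral ribonucleoproteins, rose by 0.82 (SE 0.17) with shLITATS1-1 and was at 0.27 (SE 0.18, adjusted p = 0.202) with shLITATS1-2. MX2 had 1 to 9 counts per library and was not tested.

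The ISG15 system attaches this ubiquitin-like protein to other proteins. ISG15 stood at 29.8, 33.0 and 31.9 CPM with shNT, 87.1, 82.2 and 81.8 with shLITATS1-1 and 44.7, 42.9 and 43.8 with shLITATS1-2. The groups stood apart, with log2 fold changes of 1.41 (SE 0.048) and 0.47 (SE 0.052) and a direct difference of -0.93 (SE 0.045, adjusted p = 2.77e-29, edgeR). HERC5, the ligase of the system, rose by 0.72 (SE 0.051) with shLITATS1-1 and was at 0.02 (SE 0.055, adjusted p = 0.766) with shLITATS1-2. UBE2L6, its conjugating enzyme, was at 0.02 (SE 0.062, adjusted p = 0.755) with shLITATS1-1 and rose by 0.22 (SE 0.060) with shLITATS1-2. USP18, which removes ISG15 and restrains the type I receptor, was at 0.12 (SE 0.088, adjusted p = 0.227) with shLITATS1-1 and fell by 0.52 (SE 0.095) with shLITATS1-2.

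HERC6, a relative of HERC5 and its neighbour on chromosome 4, changed in opposite directions, as did PARP9, 2 of the 46 tested genes. Of all tested genes, 9.01% passed in opposite directions with the hairpins and also differed between them. HERC6 stood at 16.5, 16.7 and 16.2 CPM with shNT, 20.6, 22.0 and 22.0 with shLITATS1-1 and 12.6, 12.9 and 13.3 with shLITATS1-2. All shLITATS1-1 libraries lay above shNT and all shLITATS1-2 libraries below it. HERC6 thus changed by 0.39 on the log2 scale (SE 0.069, adjusted p = 1.46e-06, edgeR) with the first hairpin and by -0.34 (SE 0.075, adjusted p = 6.22e-05) with the second.

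PARP9 was the other gene of this kind. It encodes a protein that pairs with the ubiquitin ligase DTX3L in interferon signalling and DNA repair, and both genes start from a shared region on chromosome 3 where they overlap by 217 exonic bases on opposite strands. PARP9 stood at 20.5, 18.2 and 19.5 CPM with shNT, 27.3, 25.1 and 26.8 with shLITATS1-1 and 12.6, 14.2 and 14.2 with shLITATS1-2. Here as well the hairpin groups lay on either side of shNT, with log2 fold changes of 0.45 (SE 0.067, adjusted p = 2.13e-08, edgeR) and -0.50 (SE 0.074, adjusted p = 1.57e-08). DTX3L rose by 0.46 (SE 0.061) with shLITATS1-1 and was at 0.05 (SE 0.063, adjusted p = 0.539) with shLITATS1-2. PARP14, a large ADP-ribosyltransferase, rose by 0.51 (SE 0.044) with shLITATS1-1 and was at 0.10 (SE 0.045, adjusted p = 0.0616) with shLITATS1-2, and PARP12 rose with both, by 0.46 (SE 0.063) and 0.26 (SE 0.064). All 4 were lower with shLITATS1-2 than with shLITATS1-1, beside 30.2% of all tested genes. The differences ran from -0.20 for PARP12 to -0.95 for PARP9, but under library-size scaling PARP12 (-0.07) did not pass.

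SAMD9 and SAMD9L, adjacent genes on chromosome 7 whose proteins restrict poxviruses and growth, rose at least 2-fold with both hairpins. SAMD9 stood at 14.3, 13.3 and 13.3 CPM with shNT, 48.2, 47.5 and 50.5 with shLITATS1-1 and 28.5, 29 and 28.95 with shLITATS1-2. SAMD9L stood at 3.07, 4.04 and 3.34 CPM, 11.3, 11.5 and 12.8, and 8.15, 7.65 and 9.12. In both genes the groups stood apart in the order shNT, shLITATS1-2, shLITATS1-1. Fold changes were 1.84 (SE 0.062) and 1.08 (SE 0.066) for SAMD9 and 1.77 (SE 0.12) and 1.25 (SE 0.12) for SAMD9L. The direct differences of -0.76 (SE 0.053) and -0.52 (SE 0.095) passed in edgeR (adjusted p = 8.04e-21 and 2.67e-06).

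Among the genes named for their induction by interferon, IFI44 stood at 5.02, 3.94 and 3.90 CPM with shNT, 14.6, 13.4 and 13.5 with shLITATS1-1 and 8.49, 9.23 and 8.59 with shLITATS1-2. It rose by 1.69 (SE 0.11) and 1.03 (SE 0.11), with the groups apart. Its neighbour IFI44L had 2 to 4 counts per library with shNT, 10 to 16 with shLITATS1-1 and 7 to 8 with shLITATS1-2, too few for the test. IFI6, a small protein that restrains apoptosis, stood at 7.01, 7.11 and 7.39 CPM, 15.2, 15 and 14.5, and 10.3, 9.28 and 11.95. It rose by 1.06 (SE 0.093) and 0.55 (SE 0.098), again without overlap.

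IFI27 was near the lower limit of measurement, at 0.26, 0.41 and 0.41 CPM with shNT (5 to 8 counts), 1.05, 0.89 and 1.11 with shLITATS1-1 and 0.63, 0.53 and 0.82 with shLITATS1-2. The groups did not overlap, and it rose by 1.49 (SE 0.35, adjusted p = 1.92e-04, edgeR) with shLITATS1-1. The rise of 0.86 (SE 0.38, adjusted p = 0.0482) with shLITATS1-2 held in edgeR with all libraries and without shLITATS1-2 replicate 2. It was lost when any other library was left out: shNT replicate 1 (0.68), 2 (0.97) or 3 (0.97), any shLITATS1-1 replicate (0.86), or shLITATS1-2 replicate 1 (0.90) or 3 (0.68). DESeq2 did not call it either (0.88). IFI35, a leucine zipper protein, moved the other way from the rest of this family. It stood at 21.3, 22.0 and 21.3 CPM with shNT, 10.0, 10.3 and 9.79 with shLITATS1-1 and 20.2, 18.3 and 19.0 with shLITATS1-2. The shLITATS1-1 libraries lay far below the other groups, which lay close together. The fold change was -1.10 (SE 0.077, adjusted p = 6.55e-21) with shLITATS1-1. The smaller decrease with shLITATS1-2 (-0.17, SE 0.067, adjusted p = 0.0277) was lost under library-size scaling (-0.05) and in DESeq2 (-0.17). Leaving out shNT replicate 2 (-0.15) also ended it, as did leaving out replicate 2 (-0.14) or 3 (-0.16) of shLITATS1-2.

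Enzymes of nucleotide and nucleic acid metabolism rose with both hairpins. RSAD2, or viperin, which makes a chain-terminating nucleotide, rose by 0.63 (SE 0.14) and 0.90 (SE 0.13). CMPK2, the kinase gene that lies head to head with RSAD2 on chromosome 2, stood at 1.74, 1.38 and 1.85 CPM with shNT, 4.78, 4.58 and 4.84 with shLITATS1-1 and 2.61, 2.65 and 2.59 with shLITATS1-2. Its groups stood apart, and it rose by 1.51 (SE 0.17) and 0.66 (SE 0.19). Between the hairpins CMPK2 was lower with shLITATS1-2 by a log2 difference of -0.85 (SE 0.15, adjusted p = 9.99e-07, edgeR). RSAD2 was higher by 0.27 (SE 0.12, adjusted p = 0.0486), a call that was lost in DESeq2 (0.27), with DESeq2's size factors (0.27) and without any 1 of shLITATS1-1 replicates 2 and 3 (0.25 each) or shLITATS1-2 replicates 1 (0.27), 2 (0.28) and 3 (0.27). ISG20, an exonuclease, rose by 0.52 (SE 0.071) and 0.52 (SE 0.070).

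Of the TRIM ligases, TRIM21, a receptor for antibodies inside the cell, did not pass in any comparison (0.08 and 0.07 against shNT). TRIM22 was low, at a mean of 0.75 CPM (SD 0.26) over the shNT libraries, 0.70 (SD 0.11) with the first hairpin and 1.44 (SD 0.099) with the second. It was at -0.10 (SE 0.32, adjusted p = 0.811, edgeR) with shLITATS1-1 and rose by 0.94 (SE 0.27, adjusted p = 0.00220) with shLITATS1-2. The direct difference was 1.03 (SE 0.28, adjusted p = 8.78e-04). PLSCR1, a phospholipid scramblase that limits viral entry, rose by 0.23 (SE 0.050) with shLITATS1-1 and was at -0.10 (SE 0.051, adjusted p = 0.0734) with shLITATS1-2. LGALS3BP, a secreted glycoprotein that binds galectin, rose by 0.16 (SE 0.034) and 0.35 (SE 0.034). SP110, a nuclear body protein, and EPSTI1 did not pass against shNT with either hairpin. SP110 was at 0.23 (SE 0.10, adjusted p = 0.0544, edgeR) with shLITATS1-1 and -0.04 (SE 0.11) with shLITATS1-2. EPSTI1 had 5 to 9 counts per library with shNT and wide errors, at 0.72 (SE 0.41, adjusted p = 0.121, edgeR) and 0.27 (SE 0.43). XAF1, a promoter of apoptosis, had 0 to 2 counts per library.

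**Figure D4:**
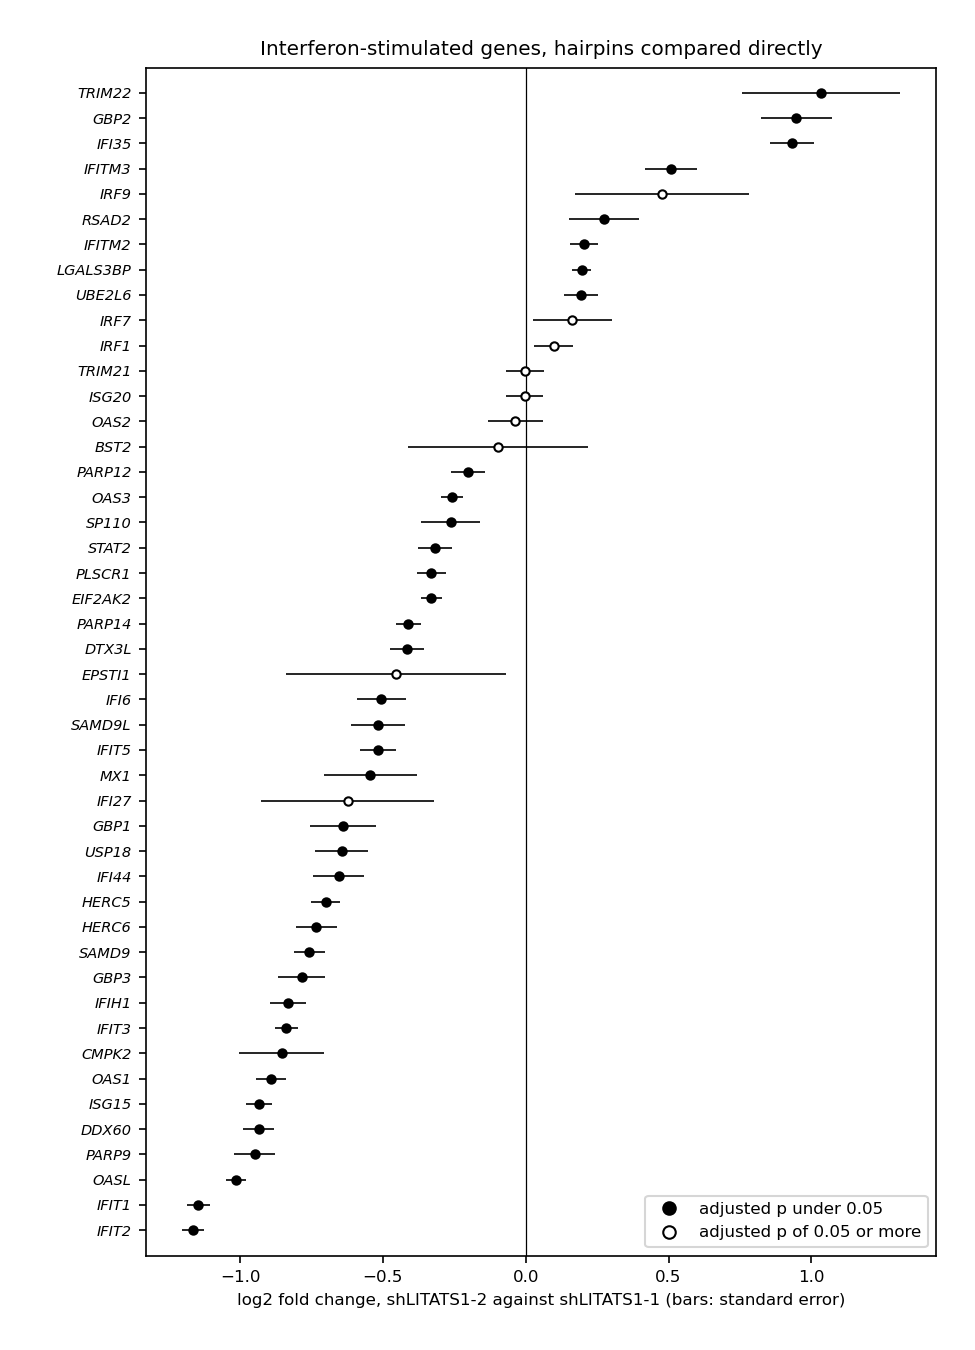
Log2 difference of shLITATS1-2 from shLITATS1-1 for the 46 tested genes, ordered from highest to lowest, with bars of 1 standard error and open circles where the adjusted p was 0.05 or more. IFIT2, IFIT1 and OASL lie at or below -1.01 at the bottom, and TRIM22, GBP2, IFI35 and IFITM3 lead the genes above 0.

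Levels of different genes were also compared per kilobase of exon. The length took in all annotated exons of a gene, with bases shared with other genes, so the order depends in part on the annotation. By this measure LGALS3BP was the most abundant with shNT, at 57.8 ± 3.89 CPM per kilobase (SD, n = 3). IFITM2 followed at 34.0 ± 0.97 and ISG15 at 33.6 ± 1.72, which did not differ beyond their spread. OASL (18.4 ± 0.34) and IFIT3 (18.4 ± 0.85) came next and were also within their spread. With shLITATS1-1 ISG15 stood at 88.9, above LGALS3BP at 64.4 and OASL at 62.4, and with shLITATS1-2 LGALS3BP was again highest at 73.8, with ISG15 at 46.6 and IFITM2 at 46.3. At the other end, IFI27, EPSTI1, IFI44L, MX2 and XAF1 stood below 0.1 CPM per kilobase with shNT.

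The rest of the pathway was followed with 61 other genes, 55 of which were tested: 31 rose and 15 fell with shLITATS1-1, and 25 rose and 10 fell with shLITATS1-2. Between the hairpins 13 were higher and 24 lower with shLITATS1-2, or 22 higher and 15 lower under library-size scaling. Of all tested genes, 30.5% were higher and 30.5% lower with shLITATS1-1, 27.8% and 28.9% with shLITATS1-2, and 30.7% and 30.2% between the hairpins, where 67.7% of the called genes were higher under library-size scaling. The counts of each list below stand against these shares. Every interferon gene with enough counts rose with shLITATS1-1, 6 of 6 beside 30.5% of all tested genes, and 4 of 6 rose with shLITATS1-2, beside 27.8%. The levels were low. IFNB1, the type I interferon made by most cells, stood at 1.48, 0.97 and 0.56 CPM with shNT, 2.00, 2.00 and 2.11 with shLITATS1-1 and 0.87, 1.64 and 1.39 with shLITATS1-2. It rose by 1.01 (SE 0.25, adjusted p = 3.44e-04, edgeR) with shLITATS1-1, whose libraries lay above the others, and was at 0.37 (SE 0.27, adjusted p = 0.254) with shLITATS1-2, which overlapped shNT. Without shNT replicate 1 the latter was 0.76 and passed. IFNA1 stood at 0.26, 0.46 and 0.41 CPM with shNT, 3.05, 2.90 and 2.26 with shLITATS1-1 and 0.53, 0.096 and 0.19 with shLITATS1-2. Only its shLITATS1-1 libraries stood apart, with a rise of 2.84 (SE 0.29).

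IFNL1, a type III interferon, stood at 3.33, 3.68 and 3.18 CPM with shNT, 9.30, 9.26 and 9.37 with shLITATS1-1 and 5.50, 5.34 and 5.14 with shLITATS1-2. The groups stood apart in the order seen for the IFIT genes, with fold changes of 1.45 (SE 0.12) and 0.65 (SE 0.13). IFNL2 rose by 1.33 and 0.80 and IFNL3 by 1.21 and 0.82, but these near-identical copies may exchange reads, so their separate values are uncertain. IFNE, an epithelial type I interferon, rose by 1.55 (SE 0.20) and 0.62 (SE 0.22). The latter call was lost in DESeq2 (0.62) and without shNT replicate 2 (0.50) or shLITATS1-2 replicate 2 (0.57). IFNA2, IFNK and IFNG had no counts in any library.

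Of the receptor genes, IFNGR1, the ligand-binding chain for interferon gamma, had the largest difference between the hairpins. It stood at 48.6, 47.5 and 48.2 CPM with shNT, 95.02, 96.99 and 102.1 with shLITATS1-1 and 28.9, 28.95 and 32.4 with shLITATS1-2. The hairpin groups lay on either side of shNT, with log2 fold changes of 1.03 (SE 0.044) and -0.68 (SE 0.052) and a direct difference of -1.70 (SE 0.047, adjusted p = 1.54e-43, edgeR). IFNAR1, a chain of the type I receptor, likewise rose by 0.34 (SE 0.041) with shLITATS1-1 and fell by 0.22 (SE 0.043) with shLITATS1-2. IFNGR2 rose with both (0.21 and 0.49). IL10RB, the shared chain of the type III receptor, was low and rose with shLITATS1-1 (1.06, SE 0.43, adjusted p = 0.0290). That call was lost in DESeq2 (1.09) and without shNT replicate 1 (0.87) or 2 (0.98) or shLITATS1-1 replicate 2 (0.84) or 3 (1.04).

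All 3 kinases bound to these receptors fell with shLITATS1-2, beside 28.9% of all tested genes. JAK2 and TYK2 also fell with shLITATS1-1, beside 30.5%. JAK2 fell by 0.38 (SE 0.069) with shLITATS1-1 and by 0.67 (SE 0.070) with shLITATS1-2. TYK2 fell by 0.12 (SE 0.051) and 0.34 (SE 0.052), the first of these without passing in DESeq2 (-0.12) or without any 1 of shNT replicates 2 (-0.10) and 3 (-0.13) and shLITATS1-1 replicates 2 (-0.12) and 3 (-0.11). JAK1 rose by 0.09 (SE 0.030) with shLITATS1-1, a call lost without shLITATS1-1 replicate 3 (0.06), and fell by 0.30 (SE 0.031) with shLITATS1-2.

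Of 15 tested genes that sense RNA or DNA upstream of interferon, 7 rose and 5 fell with shLITATS1-1, and 8 rose and 4 fell with shLITATS1-2. The share that fell was near that of all tested genes, 30.5% and 28.9%. RIGI, the sensor of short double-stranded RNA ends, rose by 1.01 (SE 0.045) and 0.59 (SE 0.046), and its relative DHX58 by 0.88 (SE 0.19) and 0.82 (SE 0.19). IFI16, a DNA sensor, rose by 0.53 (SE 0.082) and 1.03 (SE 0.076). CGAS, the enzyme that detects cytosolic DNA, named after its values were seen, fell by 0.83 (SE 0.084) with shLITATS1-1 and by 0.66 (SE 0.080) with shLITATS1-2. STING1, the adaptor of cytosolic DNA sensing, was at 0.30 (SE 0.26, adjusted p = 0.321, edgeR) with shLITATS1-1 and rose by 1.12 (SE 0.22) with shLITATS1-2, from a level of 1.02 ± 0.29 CPM (SD, n = 3) with shNT.

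Class I antigen presentation genes, also targets of interferon, rose in 9 of 14 cases with shLITATS1-1, where 4 fell, and in 10 of 14 with shLITATS1-2, where the remaining 4 had adjusted p of 0.232 (TAPBP) to 0.754 (TAP1) in edgeR. Of all tested genes 30.5% rose and 30.5% fell with shLITATS1-1, so the share of class I genes that fell was near the background, and 27.8% rose with shLITATS1-2. HLA-B stood at 8.65, 9.15 and 9.19 CPM with shNT, 24.5, 23.95 and 20.2 with shLITATS1-1 and 19.4, 19.0 and 16.9 with shLITATS1-2. Both hairpin groups lay well above shNT, with fold changes of 1.34 (SE 0.083) and 1.03 (SE 0.085), and HLA-F rose by 1.42 (SE 0.20) and 0.97 (SE 0.21). Reads can be exchanged among these similar genes, so their separate values are uncertain. PSMB9, an immunoproteasome subunit, fell by 1.19 (SE 0.13) with shLITATS1-1 and was at -0.11 (SE 0.11, adjusted p = 0.430, edgeR) with shLITATS1-2. PSMB10, another subunit, rose by 0.45 (SE 0.17) and 0.80 (SE 0.16). The first of these was lost in DESeq2 (0.46) and without shNT replicate 2 (0.28) or shLITATS1-1 replicate 1 (0.42).

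Interferon-induced chemokines gave large changes with shLITATS1-1. CCL5 stood at 177.9, 175.8 and 167.2 CPM with shNT, 559.3, 559.3 and 531.4 with shLITATS1-1 and 243.5, 238.8 and 241.4 with shLITATS1-2. The 3 groups stood apart, with fold changes of 1.66 (SE 0.032) and 0.47 (SE 0.032). CXCL10 rose by 1.25 (SE 0.18) and CXCL11 by 2.18 (SE 0.22) with shLITATS1-1, while with shLITATS1-2 they were at -0.02 (SE 0.22, adjusted p = 0.957, edgeR) and 0.31 (SE 0.29, adjusted p = 0.382). All 3 chemokines were lower with shLITATS1-2 than with shLITATS1-1, beside 30.2% of all tested genes. The log2 differences were -1.19, -1.26 and -1.87.

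Of 8 negative regulators of interferon signalling, 1 rose and 4 fell with shLITATS1-1, beside 30.5% and 30.5% of all tested genes. With shLITATS1-2, 1 rose and 1 fell, where 27.8% of all tested genes rose and 28.9% fell, 56.7% in either direction. The gene with the lowest value, SOCS1, did not pass (-0.91, SE 0.42, adjusted p = 0.0550, edgeR, with shLITATS1-1), except without shNT replicate 3 (-1.25). SOCS3, an inhibitor of JAK kinases, fell by 0.36 (SE 0.059) with shLITATS1-1 and was at -0.12 (SE 0.057, adjusted p = 0.0680, edgeR) with shLITATS1-2. IRF2, which competes with IRF1 for its sites, fell by 0.32 (SE 0.071) and was at 0.14 (SE 0.066, adjusted p = 0.0673). PIAS1 and PTPN2, which restrain JAK and STAT signalling, fell by 0.11 (SE 0.046) and 0.13 (SE 0.058) with shLITATS1-1. PIAS1 was the gene that fell with shLITATS1-2 (-0.17, SE 0.046), a call lost under library-size scaling (-0.05). Its call with shLITATS1-1 was lost without any 1 of the shNT libraries or shLITATS1-1 replicates 1 and 3 (-0.11 to -0.09). The PTPN2 call was lost without shNT replicate 1 or 2 or shLITATS1-1 replicate 2 or 3 (-0.12 to -0.11).

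**Figure D5:**
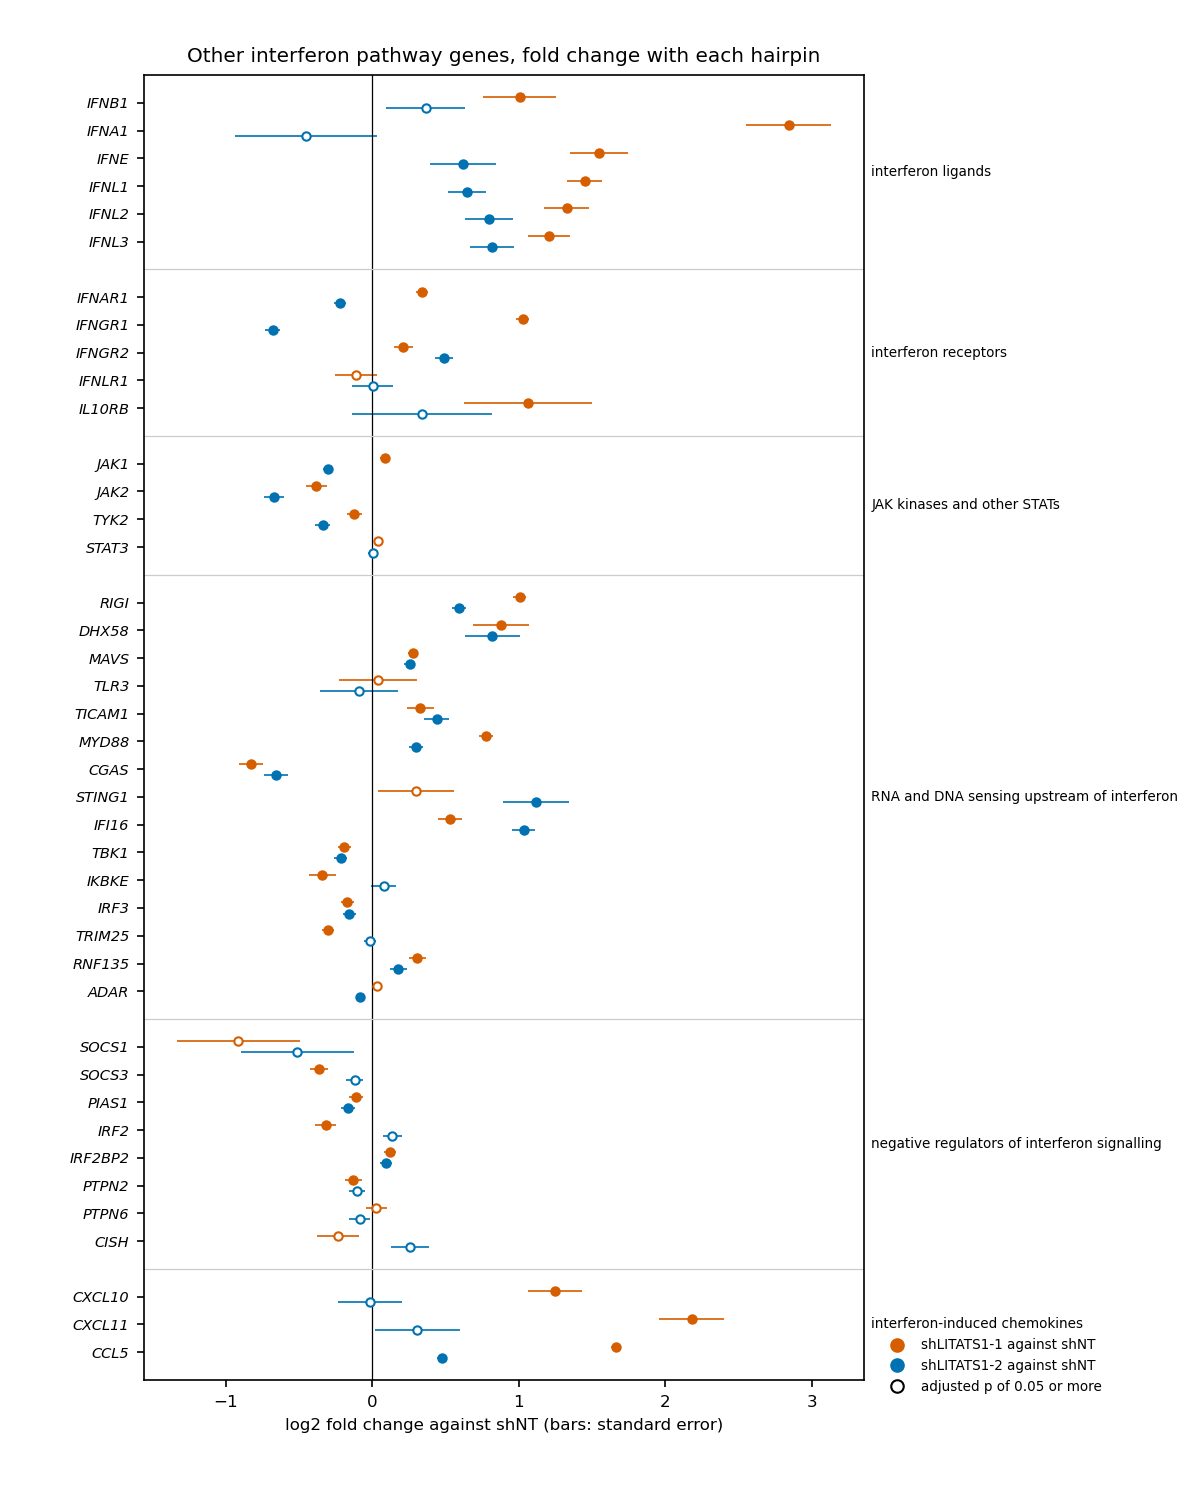
Log2 fold change of other interferon pathway genes with shLITATS1-1 (orange) and shLITATS1-2 (blue) against shNT, with bars of 1 standard error and open circles where the adjusted p was 0.05 or more; class I genes are given in the text only. The ligands and chemokines lie to the right of 0 in orange, JAK2 lies to the left of 0 in both colours, and IFNGR1 has its colours on either side of 0.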

How the data were processed

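RNA was measured by sequencing in 9 libraries of A549 cells, 3 for each of shNT, shLITATS1-1 and shLITATS1-2, grouped by the sample titles. The authors deposited 1 table of raw fragment counts, with a row for each gene. Per the submitters' processing notes, the tools were HTSeq 0.12.4, STAR 2.7.5a, cutadapt 2.10 and FastQC, on GRCh38. For the strand setting and gene annotation no value is given in the sources, so overlapping, antisense and near-identical genes have uncertain counts.

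HTSeq adds 5 summary lines without a gene, which were dropped. Ambiguous fragments, the largest of them, made up 10.8% with shNT, 10.2% with shLITATS1-1 and 10.3% with shLITATS1-2. Symbols were found for 60357 gene identifiers, and coordinates and exon lengths for 58503 in GENCODE 29. Genes were kept with edgeR's filterByExpr at a minimum count of 10. One quasi-likelihood fit (edgeR 4.0.16, R 4.3.3, TMM scaling, glmQLFit robust, 6 residual degrees of freedom, 9 libraries) gave each pair of groups a two-sided test with Benjamini-Hochberg adjustment over 15500 genes and a threshold of 0.05. The common biological coefficient of variation was 2.71%, so small differences could pass. Levels are TMM-scaled CPM. Replicates differed by more than sampling noise in all 9 pairs (chi-square per degree of freedom 1.47 to 2.72).

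The rule for the 50 genes uses no measured value, but the genes, lists and tests were chosen with earlier results of these data known. No list was tested as a set. One of the 50 is given in every library where it passed with a log2 change of at least 1 with either hairpin, passed in opposite directions, or is a STAT or IRF regulator; of each pathway list up to 4 genes that passed are named by size of change, beside the ligands. Some genes of these lists are not reported here, and the lists and counts leave them out. Alternatives were DESeq2 1.42.0, its size factors in edgeR, library size alone, no filter, a minimum count of 50, a block for the replicate number, fits of 6 libraries, calls past 2-fold, a threshold of 0.01, and the omission of each library. A search of any listed promoter of a gene was added after the data were seen. The scripts were tested on simulated data. Python 3.11.15, pandas 2.3.3, numpy 2.4.6, scipy 1.17.1 and matplotlib 3.10.9 were used for promoters, summaries and figures.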

Additional observations from a re-analysis of the deposited data

Results flagged for a closer look

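Of the 46 tested interferon-stimulated genes, 2 passed in opposite directions with the hairpins and also differed in the direct test of shLITATS1-2 against shLITATS1-1 (edgeR, adjusted p under 0.05), as 9.01% of all tested genes did. HERC6 had a log2 difference of -0.73 and PARP9 of -0.95, each higher than shNT in 3 of 3 shLITATS1-1 libraries and lower in 3 of 3 shLITATS1-2 libraries.

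The same was found for 5 of the 55 other tested genes of the pathway, a share near that of all tested genes. IFNAR1 differed by -0.56, IFNGR1 by -1.70 and JAK1 by -0.39. PSMB8, an immunoproteasome subunit, differed by 0.49 and ERAP1, which trims peptides for class I molecules, by 0.52, both being lower than shNT with shLITATS1-1 and higher with shLITATS1-2. PSMB8 fell by 0.23 (SE 0.078) with shLITATS1-1, a call lost without shNT replicate 2 (-0.19) or shLITATS1-1 replicate 1 (-0.19), and the JAK1 call with shLITATS1-1 was lost without shLITATS1-1 replicate 3 (0.06). PSMB8 and ERAP1 were named after their values were seen.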

How the results depend on the processing

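No interferon-stimulated gene that was called changed its direction under any alternative run, and of their single values 2305 stayed on their side of the threshold, 120 lost the call and 15 gained it. Asking for at least 2-fold left 18 higher and 1 lower with shLITATS1-1, 8 and 0 with shLITATS1-2, and 1 and 3 between the hairpins, and for the other pathway genes 14 and 1, 3 and 0, and 1 and 5. Scaling by library size alone gave 22 higher and 15 lower pathway genes between the hairpins. It gave the other sign, with a call under at least 1 of the scalings, for TRIM25 (0.10) and ADAR (0.0296) with shLITATS1-2, and for STAT3 (0.0928), MAVS (0.11), TBK1 (0.11), RNF135 (0.0027), ADAR (0.0167) and IRF2BP2 (0.10) between the hairpins. Leaving out single libraries gave 33 to 36 higher and 2 lower interferon-stimulated genes with shLITATS1-1, 27 to 28 and 6 to 8 with shLITATS1-2, and 6 to 8 and 28 to 30 between the hairpins. LITATS1 ranged from -2.28 to -2.10 and from -2.40 to -2.24. The replicate numbers did not pair the libraries (correlations of same-numbered deviations from -0.10 to 0.054). With the replicate number as a block, 35 rose and 2 fell, 27 rose and 7 fell, and 7 were higher and 29 lower in the 3 comparisons; the calls of IFI27 with shLITATS1-2 and of RSAD2 between the hairpins were lost. With the ISRE core sought in any listed promoter, 31 of 41 (75.6%) held it, beside 9.86% of all genes. Low counts limited IFITM1, MX2, IFI44L, XAF1, BST2, IFI27, EPSTI1, IRF9 and TRIM22, and the reason for the low counts was not tested.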
